A study of Mus musculus with 12 samples.

Results

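Livers of mice carrying the p65 S534A substitution were compared with livers of wild-type mice after both had received LPS, the bacterial lipopolysaccharide that activates Toll-like receptor 4. The comparison used 8 of the 12 arrays of the series, namely the 4 S534A LPS arrays and the 4 wild-type LPS arrays, chosen by their labels. It was made across 19938 genes that a single symbol names, on the deposited log2 values. The remaining 4 arrays, from untreated wild-type livers, gave the level without LPS and contributed to the estimate of spread.

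All mice were male, with the background strain labelled C57Bl/6, and C57Bl6/J in the source names of all 3 groups. The S534A allele replaces a serine codon of p65, the protein of the gene Rela, with a codon for alanine in the germline, so every cell of the animal carries it. It was made in PTL1 embryonic stem cells, the selection cassette was removed with Flp recombinase, and homozygous mice were bred after 5 backcrosses to C57Bl6/J. LPS was given at 1 µg/kg to the mice of both LPS groups. The time between LPS and collection of the liver was not given in the sources used here. No untreated S534A liver was among the samples, so a genotype difference already present before LPS cannot be told apart from one that arose after it. The labels number the arrays but do not say whether each came from a separate animal, and the p-values measure only the spread between these samples.

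The p65 protein is the main activating subunit of NF-κB, the transcription factor that inflammatory signals release from its IκB inhibitors. The replaced serine lies in the transactivation domain of p65 and is phosphorylated by kinases that include the IKK complex after LPS or cytokine stimulation. In the liver, LPS acts on Kupffer cells, endothelial cells and recruited leukocytes, and through their cytokines on hepatocytes, which then secrete acute phase proteins. NF-κB induces cytokines and chemokines and, in a negative feedback, several of its own inhibitors.

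Hepatocyte transcripts such as Alb and Apoa1 were among the brightest on all arrays, as the liver label implies, with a mean over 13 markers of 13.37 to 13.44 in wild-type LPS and 13.30 to 13.44 in S534A LPS. The arrays of the 2 LPS groups correlated at 0.989 to 0.995 across genes, and arrays of one group at 0.983 to 0.996. Exocrine pancreas transcripts stood out on 3 arrays. The mean of 25 such markers was 7.12 and 6.04 on wild-type LPS replicates 2 and 3 and 7.95 on S534A LPS replicate 3, against 5.63 to 5.79 on the other LPS arrays. Rela itself read 11.15, 11.20, 11.03 and 11.05 in wild-type LPS and 11.24, 11.21, 11.23 and 11.12 in S534A LPS, a difference of 0.09 ± 0.07 (SE, n = 4 per group) that did not pass the test (limma, Benjamini-Hochberg adjusted p = 1). A codon change does not alter what the Rela probe set measures, so this level does not check the genotype.

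S534A livers had more RNA of a small set of genes, cytokine and chemokine genes among them, than wild-type livers after the same LPS dose. With limma, 33 genes were higher in S534A (0.166% of the genes tested) and 1 gene, Cpeb2, was lower (0.00502%), at a Benjamini-Hochberg adjusted p under 0.05. The differences of the 33 genes ran from 0.43 to 1.27 on the log2 scale, with a median of 0.70. Only 6 of them reached 2-fold, namely Il1a, Mxd1, Ch25h, Mmp13, Il1b and Zfp296. In each of the 33 genes all 4 S534A arrays lay above all 4 wild-type LPS arrays, a separation that 648 of all genes showed (3.25%), and Cpeb2 lay below on all 4, as 235 of all genes did (1.18%). The median difference over all genes was 0.01, and the 95% interval of a gene reached a median of 0.20 to either side. In S534A, 840 genes were higher (4.21%) and 308 were lower (1.54%) at an unadjusted p under 0.05. Without wild-type LPS replicate 2 these counts were 896 and 813.

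**Figure D1:**
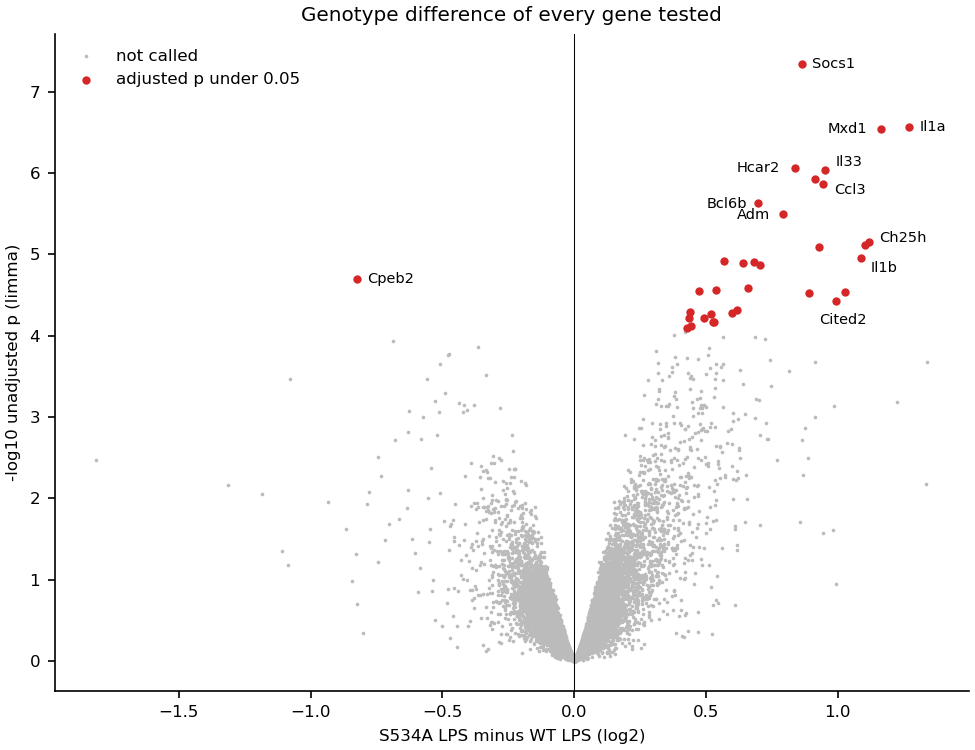
Difference between S534A LPS and wild-type LPS (log2, x axis) against -log10 of the unadjusted limma p (y axis) for each of the 19938 genes; red points have an adjusted p under 0.05. The 33 red points on the right include Socs1, Il1a and Mxd1, and Cpeb2 is the single red point on the left.

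**Figure D2:**
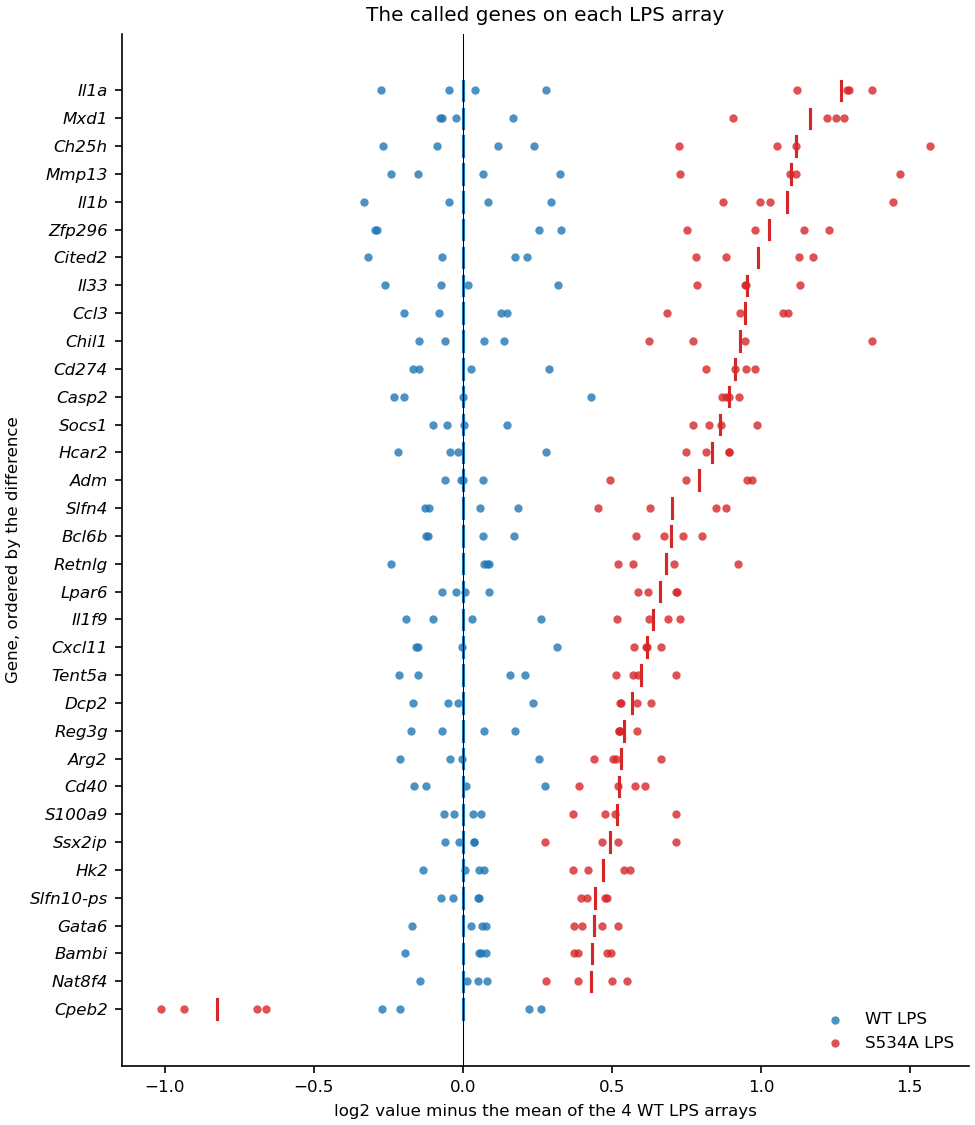
Log2 value of each called gene on the 8 LPS arrays, minus the mean of the 4 wild-type LPS arrays (x axis), with genes ordered by their difference; points are arrays and vertical bars are group means. In every gene the red S534A points and the blue wild-type points do not overlap, and Cpeb2 is the only gene whose S534A points lie to the left.

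The number of calls depended on which arrays entered. It was 9 to 117 higher genes when one LPS array was left out, with 117 without wild-type LPS replicate 1, 9 without wild-type LPS replicate 3, 21 without replicate 2, 15 without replicate 4, and 12 to 14 without any one S534A array. Without the 3 arrays that carried pancreas transcripts only Socs1 was called, although all 34 genes kept their direction, with differences 67.2% to 116% as large as before. The 9 genes Socs1, Il1a, Mxd1, Hcar2, Il33, Cd274, Ccl3, Bcl6b and Adm were called in all 12 fits that left out one array.

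Among the 49 gene lists, that of interleukin-1 family ligands and antagonists held most called genes. The lists were drawn up with earlier results of these data known, so this ranking is a description and not a test. Of 9 measured ligands and antagonists, 4 were called higher in S534A, namely Il1a, Il1b, Il33 and Il1f9, and none was called lower. Over all genes, 0.166% were called higher and 0.00502% lower. The median difference of the 9 was 0.18, against 0.01 over all genes. Il1a and Il1b encode the ligands that signal through the IL-1 receptor, Il33 encodes an alarmin that signals through ST2, and Il1f9 is the array's name for the gene of IL-36γ.

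Il1a read 8.12, 7.89, 8.21 and 8.45 on the wild-type LPS arrays and 9.29, 9.54, 9.46 and 9.46 on the S534A LPS arrays. Its difference was 1.27 ± 0.13 (SE, n = 4 per group), or 2.41-fold (limma adjusted p = 0.00191), and the groups did not overlap. The untreated wild-type livers read 8.20, 7.84, 8.28 and 8.40, in the range of the wild-type LPS livers, and the wild-type difference between LPS and untreated, which shares the wild-type LPS arrays with the genotype comparison, was -0.01. Il1a was therefore high on the S534A arrays alone. Il1b read 8.25, 8.66, 8.53 and 8.87 in wild-type LPS and 9.45, 9.58, 9.61 and 10.02 in S534A LPS. Its difference was 1.09 ± 0.15, or 2.12-fold (adjusted p = 0.0158). Unlike Il1a, Il1b was already 1.61 above untreated in wild-type LPS livers. The 2 genes are neighbours on chromosome 2, with 0 tested genes between them.

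Il33 read 6.79, 6.40, 6.21 and 6.49 in wild-type LPS, close to the 6.14 to 6.22 of untreated livers, and 7.42, 7.42, 7.60 and 7.26 in S534A LPS. The difference was 0.95 ± 0.11 (adjusted p = 0.00372). Every S534A array was above every wild-type array with or without LPS. Il1f9 read 6.33, 5.87, 6.09 and 5.96 in wild-type LPS and 6.75, 6.69, 6.58 and 6.79 in S534A LPS, a difference of 0.64 ± 0.09 (adjusted p = 0.0158).

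The antagonist Il1rn, which blocks the IL-1 receptor, behaved otherwise. It was 3.24 above untreated in wild-type LPS livers, and S534A differed from wild-type by -0.08 (95% interval -0.38 to 0.21), with overlapping arrays. Il18 differed by 0.18 (interval -0.02 to 0.38). Il1f6, Il1f8 and Il1f10 lay between 4.26 and 5.51 on all 12 arrays, near the lower end of the value range, with differences of 0.04 to 0.06. None of the 13 measured IL-1 family receptors and inflammasome genes was called. Nlrp3, the inflammasome sensor, came closest, with 0.38 ± 0.07 (adjusted p = 0.0547).

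**Figure D3:**
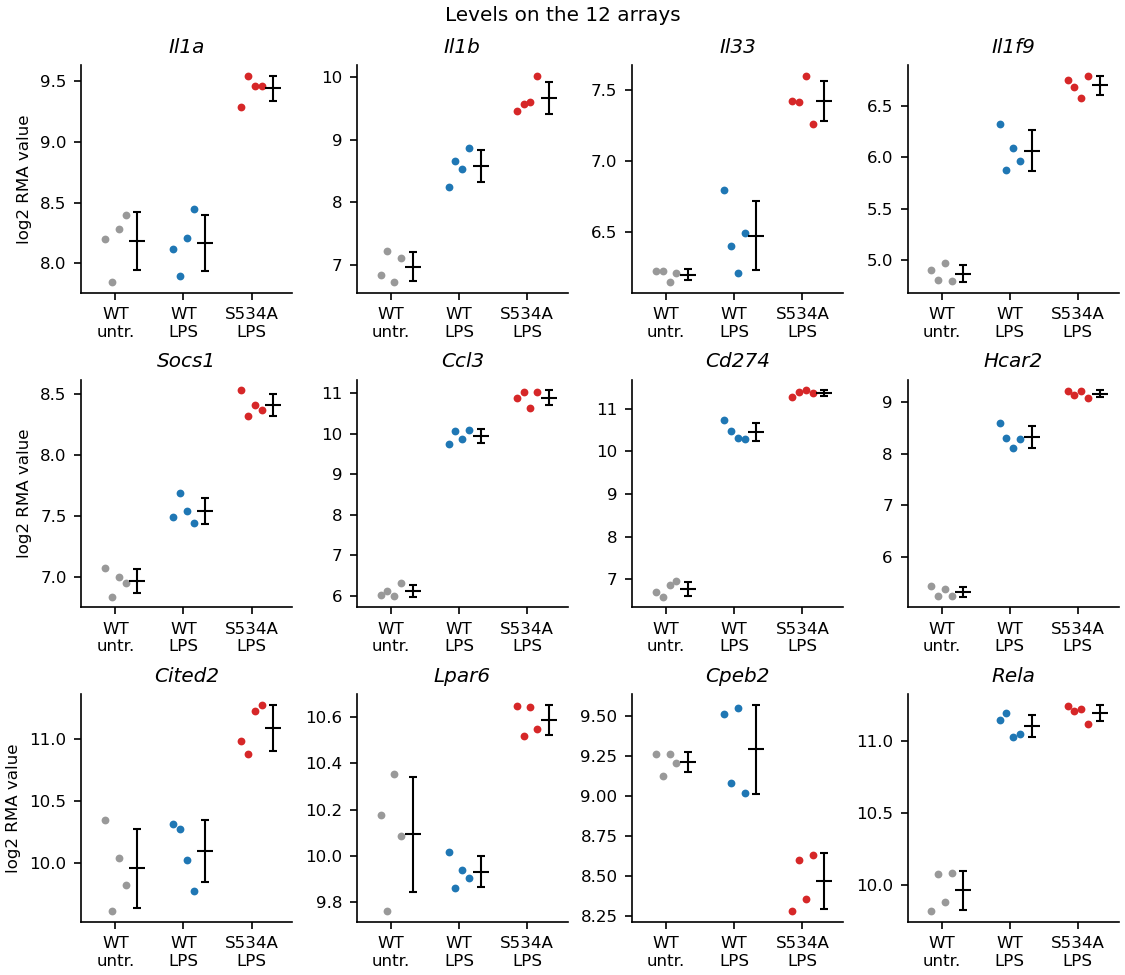
Log2 value (y axis) of 12 genes on the 4 arrays of each group; points are arrays, and the black bar and whiskers are the group mean and SD. Il1a, Cited2 and Lpar6 sit at like levels in both wild-type groups and higher in S534A LPS, Il1b, Ccl3, Cd274 and Hcar2 step up in both LPS groups, Cpeb2 is lowest in S534A LPS, and Rela differs little between the LPS groups.

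Among the suppressors of cytokine signalling, Socs1 was the gene with the smallest adjusted p of the whole comparison. Socs1, which inhibits JAK kinases downstream of interferon and cytokine receptors, read 7.49, 7.69, 7.55 and 7.44 in wild-type LPS and 8.53, 8.32, 8.41 and 8.37 in S534A LPS. The difference was 0.86 ± 0.07, or 1.82-fold (limma adjusted p = 0.000906). Wild-type LPS livers were 0.57 above untreated ones. Socs1 was the only call among 11 measured Socs, Cish and Pim genes, whose median difference was 0.10. Pim1, a kinase gene induced by STAT signalling, differed by 0.56 ± 0.10 (adjusted p = 0.0552). Socs3, the feedback inhibitor of IL-6 signalling, differed by 0.52 with an interval of -0.33 to 1.38, from the fit that pools the untreated arrays. Its wild-type LPS arrays ran from 8.65 to 10.12 and overlapped the S534A range of 9.77 to 10.65.

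Promoter sequences from RefSeq (GRCm38.p6) were available for 24 of the 33 higher genes, as 27 promoters. The 250 bases upstream of each start were searched on both strands for the NF-κB consensus, the STAT-binding GAS motif TTCNNNGAA and the core of the interferon-stimulated response element. The NF-κB consensus was found in 2 of the 27 promoters (7.41%), against 4.33% of the 19177 promoters of all tested genes. The GAS motif was found in 1 (3.7%), against 6.55%, and the interferon core in 2 (7.41%), against 2.86%. The 5 stretches with a match are shown because they are the places where the higher genes carry one of these motifs, in capitals, within this window. The Socs1 stretch (chr16:10785579-10785644, minus strand) holds 2 overlapping interferon cores, 83 to 68 bases before the start, and the Mmp13 stretch (chr9:7272343-7272402, plus strand) holds the reverse complement of one. The Il1f9 stretch (chr2:24186323-24186381, plus strand) holds a GAS motif. The Chil1 (chr1:134181952-134182011, plus strand) and Reg3g (chr6:78468963-78469022, minus strand) stretches hold the NF-κB consensus. A match is a description of the letters and not evidence of binding.
Socs1: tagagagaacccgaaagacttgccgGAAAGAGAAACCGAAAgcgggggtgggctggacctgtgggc
Mmp13: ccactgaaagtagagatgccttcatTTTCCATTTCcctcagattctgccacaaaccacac
Il1f9: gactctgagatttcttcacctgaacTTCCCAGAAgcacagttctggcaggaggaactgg
Chil1: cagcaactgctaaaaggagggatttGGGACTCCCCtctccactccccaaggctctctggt
Reg3g: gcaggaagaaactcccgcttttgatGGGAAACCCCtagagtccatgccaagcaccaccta

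Chemokines and other cytokines showed 1 call in each chemokine family. Of 17 measured CC chemokines, Ccl3, which attracts monocytes and neutrophils, was called, and the median of the family was 0.10. Ccl3 read 9.74, 10.06, 9.86 and 10.08 in wild-type LPS and 10.86, 11.01, 10.62 and 11.03 in S534A LPS, a difference of 0.95 ± 0.11 (adjusted p = 0.00386). The untreated livers read 6.00 to 6.32, so both LPS groups stood far above them. The monocyte attractants Ccl2 and Ccl7 differed by 0.74 ± 0.14 and 0.91 ± 0.18 and missed the threshold (adjusted p = 0.0787 for each). Ccl4 differed by 0.54 ± 0.11 (adjusted p = 0.108).

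Of 15 CXC chemokine genes, Cxcl11 was called. It read 9.64, 9.32, 9.17 and 9.16 in wild-type LPS and 9.94, 9.90, 9.99 and 9.94 in S534A LPS, a difference of 0.62 ± 0.10 (adjusted p = 0.0385). Cxcl10, which encodes a ligand of the chemokine receptor CXCR3, had the same difference of 0.62 but a larger SE of 0.15 (adjusted p = 0.16). The neutrophil attractant Cxcl1 differed by 0.43 with an interval of -0.36 to 1.21.

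None of 24 other cytokine genes was called, where 0.166% of all genes were called higher, and their median was 0.08. Tnf, a direct NF-κB target, read 9.01, 9.16, 9.03 and 9.32 in wild-type LPS and 9.46, 9.45, 9.53 and 9.48 in S534A LPS. The groups did not overlap, but the difference of 0.35 ± 0.08 did not pass the test (adjusted p = 0.179). Il6 differed by 0.54 ± 0.15 (adjusted p = 0.291), with S534A arrays 2 and 4 at 5.75 and 5.84 and the other 2 at 5.11 and 5.14. Il10 differed by 0.40 ± 0.14 (adjusted p = 0.508).

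No subunit or inhibitor of NF-κB was called, where 0.166% of all genes were called higher, so a count of 0 is near the background. At an unadjusted limma p under 0.05, 2 of the 4 subunits (50%) were higher, where 4.21% of all genes were. So were 6 of the 16 IκB and feedback genes (37.5%). The 4 measured subunits differed by 0.09 (Rela), 0.08 (Nfkb2), 0.30 (Relb) and 0.36 (Rel), with adjusted p of 0.251 or more. Among 16 IκB and feedback genes the median was 0.21, against 0.01 over all genes, and in 7 all S534A arrays lay above all wild-type LPS arrays, as in 3.25% of all genes. The largest difference was that of Tnfaip3, which encodes the ubiquitin-editing inhibitor A20, at 0.54 ± 0.10 (adjusted p = 0.0787). Its wild-type LPS arrays read 8.33, 8.43, 8.29 and 8.55 and its S534A arrays 8.71, 9.15, 8.78 and 9.10. Nfkbia, which encodes IκBα, differed by 0.24 (interval -0.08 to 0.56), and Nfkbiz by 0.45 ± 0.11 (adjusted p = 0.207). None of 13 IKK and upstream kinase genes and none of 20 Toll-like receptor pathway genes was called. Tlr3, the receptor for double-stranded RNA, differed by 0.53 ± 0.11 (adjusted p = 0.0903) and the LPS co-receptor Cd14 by 0.63 ± 0.17 (adjusted p = 0.291).

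None of 31 measured type I interferon response genes was called, where 0.166% of all genes were called higher. All 31 had a positive difference, as had 52.9% of all genes, with a median of 0.19, and 13 of them (41.9%) were higher at an unadjusted p under 0.05, where 4.21% of all genes were. The largest differences in RNA were those of Mx1, at 0.98 ± 0.22 (adjusted p = 0.134), and Mx2, at 0.82 ± 0.16 (adjusted p = 0.0875). Mx1 read 10.63, 10.07, 9.42 and 9.68 in wild-type LPS and 10.97, 10.98, 11.08 and 10.70 in S534A LPS, so the wild-type arrays spread more widely than the S534A arrays. Ifit1, at 12.97 to 13.26 on all LPS arrays, differed by 0.16 (interval -0.09 to 0.40). Irf1, a transcription factor of interferon signalling, differed by 0.54 ± 0.11 (adjusted p = 0.0875).

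The Schlafen genes, a family induced by interferon in leukocytes, had a median of 0.42 over 8 measured members, all positive. Slfn4 and Slfn10-ps, both on chromosome 11 with 2 tested genes between them, were called higher, where 0.166% of all genes were. Slfn4 read 9.83, 9.52, 9.53 and 9.70 in wild-type LPS and 10.27, 10.50, 10.10 and 10.53 in S534A LPS, a difference of 0.70 ± 0.10 (adjusted p = 0.0158). Slfn10-ps differed by 0.44 ± 0.08 (adjusted p = 0.0464). Schlafen genes are similar in sequence, and signal shared between their probe sets was not assessed.

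Of 13 checkpoint and co-stimulatory genes, Cd274 and Cd40 were called higher, where 0.166% of all genes were. Cd274, which encodes the inhibitory ligand PD-L1, read 10.74, 10.48, 10.30 and 10.28 in wild-type LPS and 11.27, 11.40, 11.43 and 11.36 in S534A LPS. The difference was 0.91 ± 0.11 (adjusted p = 0.00386), on top of 3.68 between wild-type LPS and untreated livers. Cd40, a co-stimulatory receptor of antigen-presenting cells, differed by 0.53 ± 0.09 (adjusted p = 0.0429).

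The acute phase proteins of the hepatocyte lay near the median of all genes. The median of 25 measured genes was 0.00, against 0.01 over all genes. None was called, where 0.166% of all genes were called higher, so a count of 0 is near the background. At an unadjusted limma p under 0.05, 0 were higher and 1 was lower (4%), against 4.21% and 1.54% of all genes. Saa1 read 11.62, 11.77, 11.68 and 11.82 in wild-type LPS and 11.65, 11.72, 11.74 and 11.64 in S534A LPS, and the groups overlapped throughout. Its difference was -0.03 with an interval of -0.96 to 0.90, which is wide because the untreated arrays ranged from 5.36 to 8.16. With only the 8 LPS arrays in the fit the interval was -0.17 to 0.11. Saa2 and Lcn2 gave -0.03 and -0.05, with intervals in the same fit of -0.17 to 0.11 and -0.20 to 0.09. Orm3, an α1-acid glycoprotein gene, had the largest difference of the list, -0.72 ± 0.30 (adjusted p = 0.758).

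**Figure D4:**
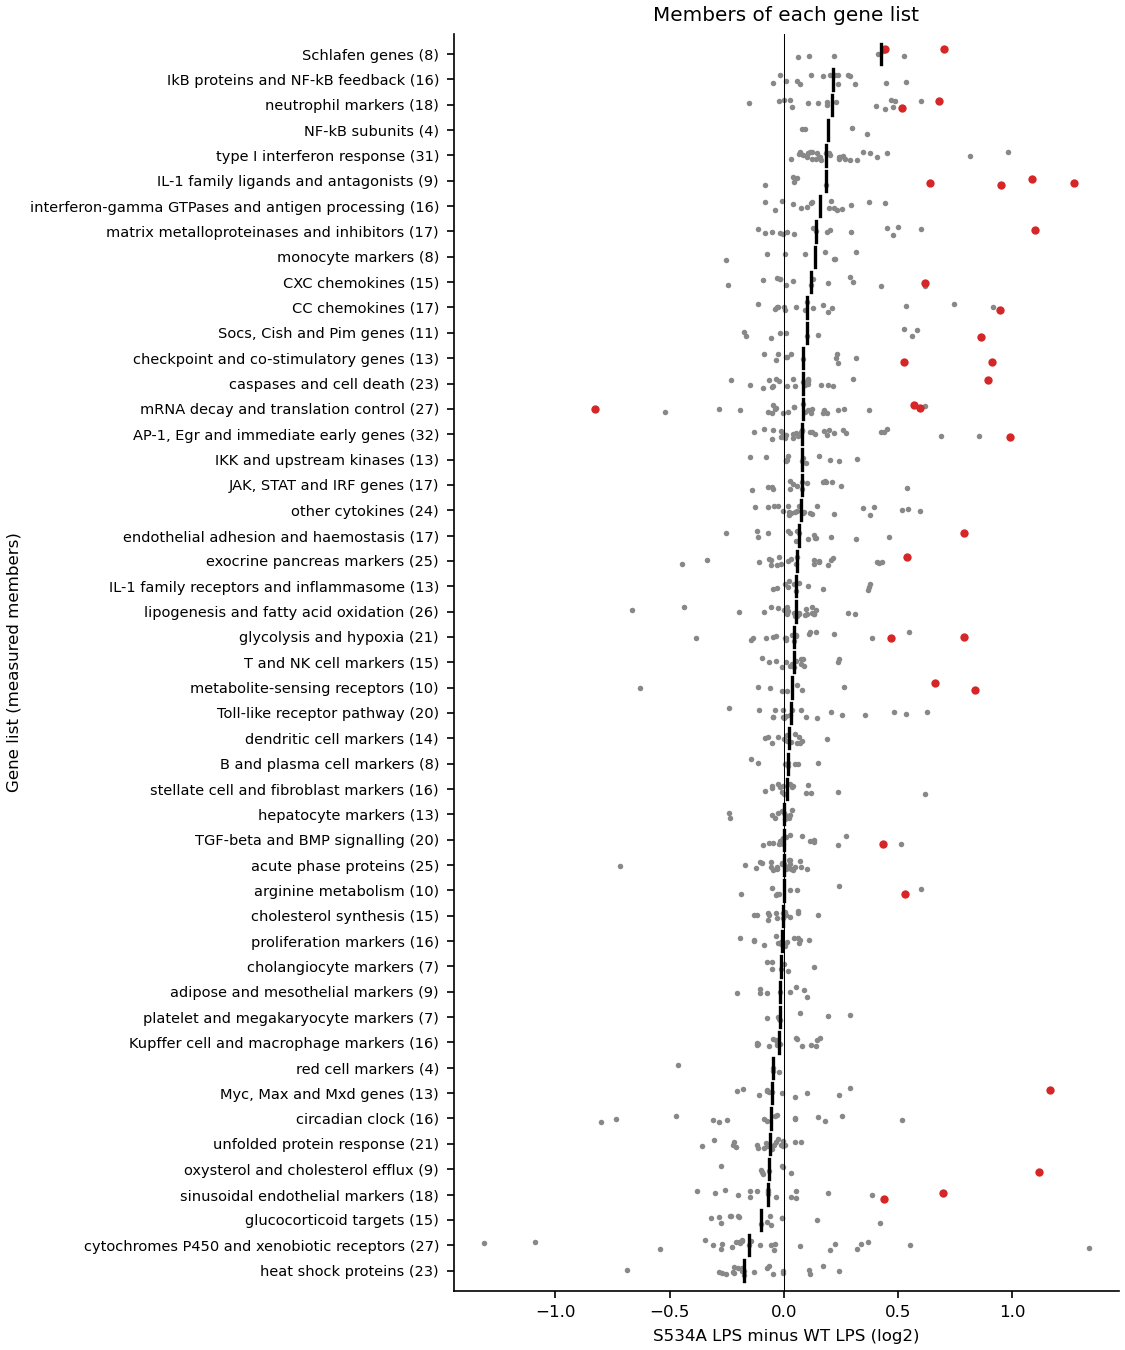
Difference between S534A LPS and wild-type LPS (log2, x axis) for the measured members of each gene list (y axis, number measured in brackets); points are genes, red points have an adjusted p under 0.05, and vertical bars are list medians. The Schlafen genes have the highest median, 0.42, and the heat shock proteins the lowest, -0.17, while acute phase proteins and hepatocyte markers centre on 0.00.

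Several called genes encode regulators of transcription and of mRNA. Mxd1, a MAX-binding repressor that opposes MYC, read 9.45, 9.26, 9.21 and 9.22 in wild-type LPS and 10.19, 10.54, 10.51 and 10.57 in S534A LPS. The difference was 1.17 ± 0.12, or 2.24-fold (adjusted p = 0.00191). Mxd1 was the only call among 13 Myc, Max and Mxd genes, whose median was -0.05, and Myc differed by 0.24 with an interval of -0.63 to 1.11.

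Cited2, a co-regulator that competes with HIF-1α for CBP and p300, read 10.31, 10.27, 10.02 and 9.78 in wild-type LPS and 10.98, 10.88, 11.22 and 11.27 in S534A LPS, a difference of 0.99 ± 0.16 (adjusted p = 0.0312). Like Il1a, it differed little between wild-type LPS and untreated livers (0.14). Zfp296, a zinc finger gene, differed by 1.03 ± 0.16 (adjusted p = 0.0258).

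Of 27 genes of mRNA decay and translation control, Dcp2 and Tent5a were called higher and Cpeb2 lower, where 0.166% and 0.00502% of all genes were. Dcp2, the decapping enzyme, differed by 0.57 ± 0.08 (adjusted p = 0.0158). Tent5a, a poly(A) polymerase gene, differed by 0.60 ± 0.10 (adjusted p = 0.0385), and a further probe set of the gene gave 0.62. Cpeb2, which binds cytoplasmic polyadenylation elements, read 9.51, 9.08, 9.55 and 9.02 in wild-type LPS and 8.28, 8.60, 8.35 and 8.63 in S534A LPS. It fell by 0.83 ± 0.12 (adjusted p = 0.0226), and the S534A arrays were also below the untreated range of 9.13 to 9.26. No gene was called lower when any S534A array or wild-type LPS replicate 3 was left out.

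Genes of the vessel wall and the matrix were among the calls. Mmp13, a collagenase, read 8.08, 8.39, 8.18 and 8.65 in wild-type LPS and 9.05, 9.79, 9.44 and 9.42 in S534A LPS, a difference of 1.10 ± 0.15, or 2.15-fold (adjusted p = 0.0136). It was the only call among 17 metalloproteinases and inhibitors, whose median was 0.14. Adm, which encodes the vasodilator peptide adrenomedullin, read 6.42 to 6.55 in wild-type LPS and 6.97 to 7.45 in S534A LPS, a difference of 0.79 ± 0.10 (adjusted p = 0.00719).

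Bcl6b and Gata6, transcription factor genes on the sinusoidal endothelial marker list, were higher by 0.70 ± 0.09 (adjusted p = 0.00593) and 0.44 ± 0.07 (adjusted p = 0.0385). The list as a whole did not follow them. Its 18 measured members had a median of -0.07, the endothelial receptor Kdr differed by -0.38 ± 0.13 (adjusted p = 0.499), and Stab1 and Cdh5 differed by 0.03 and 0.06.

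Metabolic genes with a call had separate roles. Ch25h, which makes 25-hydroxycholesterol, read 7.25, 6.87, 7.05 and 7.38 in wild-type LPS and 8.19, 8.26, 7.86 and 8.71 in S534A LPS, a difference of 1.12 ± 0.15 (adjusted p = 0.0136). None of 15 cholesterol synthesis genes was called, and their differences lay between -0.13 and 0.15. Hcar2, the receptor for niacin and β-hydroxybutyrate, read 8.61, 8.31, 8.11 and 8.28 in wild-type LPS and 9.22, 9.14, 9.22 and 9.08 in S534A LPS, a difference of 0.84 ± 0.09 (adjusted p = 0.00372).

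Lpar6, a lysophosphatidic acid receptor, differed by 0.66 ± 0.10 (adjusted p = 0.0258), while wild-type LPS and untreated livers differed by -0.16. Arg2, the mitochondrial arginase, was higher by 0.53 ± 0.09 (adjusted p = 0.0429) and Hk2, an inducible hexokinase, by 0.47 ± 0.07 (adjusted p = 0.0258). Among 27 cytochromes P450 and xenobiotic receptors none was called, where 0.166% of all genes were called higher. Their differences ranged from -1.31 to 1.33, with 8 positive, 19 negative and a median of -0.15. At an unadjusted limma p under 0.05, 5 were higher (18.5%) and 7 lower (25.9%), against 4.21% and 1.54% of all genes. Cyp4a14, a fatty acid hydroxylase, gave 1.33 ± 0.41 (adjusted p = 0.406), with wild-type LPS arrays spread from 9.56 to 11.29.

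The remaining higher genes were Casp2, Chil1, Retnlg, S100a9, Reg3g, Bambi, Ssx2ip and Nat8f4. Casp2, a caspase of the stress response, differed by 0.89 ± 0.14 (adjusted p = 0.0258), and no other of 23 caspase and cell death genes was called. Chil1, a chitinase-like secreted protein, differed by 0.93 ± 0.13 (adjusted p = 0.0136), with S534A replicate 3 highest at 9.04. Bambi, a decoy receptor that dampens TGF-β signalling, differed by 0.43 ± 0.07 (adjusted p = 0.0399), from wild-type LPS livers that lay 0.20 below untreated ones on average (-0.20).

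Reg3g, an antimicrobial lectin that is also on the exocrine pancreas list, read 5.16, 4.91, 4.81 and 5.05 in wild-type LPS. It read 5.51, 5.51, 5.57 and 5.51 in S534A LPS, a difference of 0.54 ± 0.08 (adjusted p = 0.0258). These levels are near the lower end of the value range, and 5 of the 12 fits that left out one array still called Reg3g. S534A replicate 3, the array of this group with pancreas transcripts, read 5.57. The part of pancreas transcripts in this difference was not tested.

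After Cpeb2, the smallest adjusted p among lower genes was that of Hsph1, a heat shock protein of the HSP110 family, at -0.69 ± 0.12 (adjusted p = 0.0585). Of 23 heat shock genes, 4 had a positive difference, against 52.9% of all genes, the median was -0.17, and none was called. Armcx1, Tuft1 and Glyctk followed, with -0.37, -0.47 and -0.48 and adjusted p of 0.0676 to 0.0761. Sucnr1, the succinate receptor, differed by -0.63 ± 0.14 (adjusted p = 0.142), and Cry2, a clock repressor, by -0.73 ± 0.22 (adjusted p = 0.37).

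Neutrophil transcripts differed between the genotypes, and their part in the other differences was not tested beyond the covariate given here. In bulk liver, more cells of a type and more RNA per cell cannot be told apart. The mean of 18 neutrophil markers was 6.91 to 7.06 on the wild-type LPS arrays and 7.17 to 7.35 on the S534A LPS arrays, without overlap, against 5.97 to 6.14 in untreated livers. Retnlg and S100a9, both neutrophil genes, were called, with 0.68 ± 0.10 (adjusted p = 0.0158) and 0.52 ± 0.09 (adjusted p = 0.0385), and the receptors Cxcr2 and Csf3r gave 0.60 ± 0.14 and 0.45 ± 0.10 (adjusted p = 0.17 and 0.132). Of the 18 markers, 16 had a positive difference, as had 52.9% of all genes. At an unadjusted limma p under 0.05, 9 were higher (50%), where 4.21% of all genes were, and 0 were lower. Apart from Retnlg and S100a9, no marker on the list was called, and some differed little or were lower. Mpo gave -0.15 ± 0.08 (adjusted p = 0.994), with all S534A arrays below all wild-type LPS arrays, Elane gave -0.02, Camp 0.04, Ltf 0.03 and Lrg1 0.00. With the neutrophil mean as a covariate limma called 0 genes, with 417 higher and 574 lower at an unadjusted p under 0.05. Under the covariate the 34 genes had differences 45.6% to 140% as large as before, and their median SE rose from 0.10 to 0.18. The neutrophil mean and the genotype do not overlap, and 2 of the 34 genes are themselves on the list. Kupffer cell markers (8.32 to 8.93 in wild-type LPS, 8.66 to 8.76 in S534A LPS) and monocyte markers (7.27 to 7.71 and 7.56 to 7.68) overlapped between the groups.

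**Figure D5:**
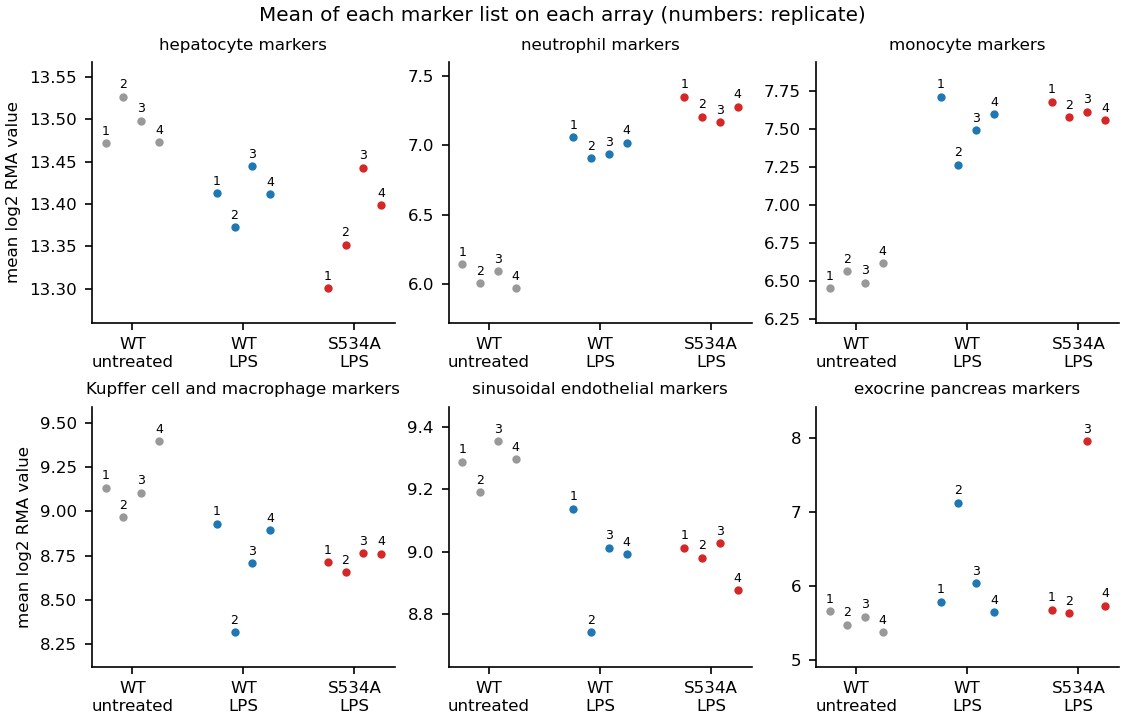
Mean log2 value of 6 marker lists (y axis) on each array by group (x axis); points are arrays and numbers are replicates. Neutrophil markers separate S534A LPS (7.17 to 7.35) from wild-type LPS (6.91 to 7.06), and exocrine pancreas markers stand out on wild-type LPS replicates 2 and 3 and S534A LPS replicate 3.

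A knock-in made in embryonic stem cells can carry flanking chromosome from those cells, so the genes around Rela on chromosome 19 were examined. Of 189 tested genes that neighbour Rela, 0 were called by limma, with 6 higher and 1 lower at an unadjusted p under 0.05. That is 3.7% of them, against 5.76% of all genes, and their median difference was 0.00. With 0.166% of all genes called higher, a count of 0 in 189 genes is near the background. On the whole of chromosome 19, 3 of 678 tested genes were called higher (0.442%), against 0.166% of all genes. These are Cd274, Il33 and Ch25h, with 313, 320 and 346 tested genes between each of them and Rela. They lie outside the neighbours examined, and whether flanking chromosome reaches them was not tested.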

How the data were processed

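RNA from mouse liver was hybridised to Affymetrix GeneChip arrays. The deposited log2 values were made by the authors with RMA, per the submitters' processing notes; the RMA version was not given in the sources used here. Of 35556 probe sets, 21789 had 1 gene symbol, 1621 several and 12146 none; probe sets of 1 symbol gave 19938 genes, with the probe set of highest mean over all arrays kept for each of the 999 genes that had more. The values ranged from 3.43 to 14.48, and the number of arrays limits the precision.

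All 12 arrays were fitted by group with limma 3.58.1 (R 4.3.3; lmFit and eBayes), and p-values were Benjamini-Hochberg adjusted over all genes. Unless the fit on only the 8 LPS arrays is named, SEs and intervals include the spread of the untreated arrays. Those arrays differed among themselves in circadian clock genes, with list means of 8.33, 9.29, 8.05 and 9.35. A gene was called at an adjusted p under 0.05. Tables and figures were made with Python 3.11.15, pandas 2.3.3 and matplotlib 3.10.9. On simulated data for this comparison, 80% of genes changed by 0.5, 96% by 0.7 and 100% by 1 or 2 (log2, 50 genes each, among 19938) were recovered, with 11 false calls. The simulated noise was normal and independent between genes and arrays, and genes of all sizes were planted together. Recovery can be lower in these data, where Mx1 at 0.98 and Ccl7 at 0.91 were not called.

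The text names all called genes, the 4 next lower genes by p, and members of 49 gene lists by a fixed number per list or for their role. Members, lists, rules and alternatives were chosen with earlier results of these data known. A gene's neighbours were up to 100 tested genes on each side. Alternatives covered arrays left out, filters, probe set rules, normalization, array weights, a replicate block and a neutrophil covariate.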

Additional observations from a re-analysis of the deposited data

Results flagged for a closer look

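Single arrays stood apart from the other 3 of their group (a gap to the next array beyond Dixon's critical share of the group's range) in 22 of 489 groups tested; chance flags about 1 in 20. No cause was tested. Among S534A LPS arrays, replicate 1 was lowest for Mxd1 at 10.19 (next 10.51), Tlr3 at 9.69 (next 10.01) and Socs7 at 8.46 (next 8.64). Replicate 3 was highest for Reg3g at 5.57 (next 5.51) and lowest for Il1f10 at 5.27 (next 5.45), and replicate 4 was lowest for Mlx at 10.15 (next 10.32).

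Wild-type LPS replicate 2 was lowest for Retnlg at 6.65 (next 6.96), Rel at 7.39 (next 7.76), Socs4 at 7.31 (next 7.95), Icosl at 6.23 (next 6.45), Cyp3a25 at 11.89 (next 12.13) and Kdr at 7.67 (next 8.10). Replicate 1 was lowest for Socs5 at 7.39 (next 7.55), Pim2 at 6.81 (next 7.10) and Pim3 at 10.13 (next 10.53). Replicate 3 was highest for Nfkbia at 10.11 (next 10.06), and replicate 4 was lowest for Bambi at 6.92 (next 7.16).

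In untreated wild-type livers, replicate 2 was highest for Slfn10-ps at 6.57 (next 6.27) and lowest for Il1f8 at 4.26 (next 4.42) and Cyp4a14 at 10.43 (next 11.96). Replicate 1 was highest for Nlrp3 at 5.78 (next 5.61) and replicate 4 for Mx2 at 6.08 (next 5.61).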

How the results depend on the processing

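None of the 34 called genes changed direction in the 23 alternatives that refitted the data (the filter on dim genes removed Il1f9 and Reg3g). The fit on only the 8 LPS arrays gave 40 higher and 1 lower, and kept 25 of the 34 calls. Leaving out one array gave 9 to 117 higher and 0 to 6 lower genes in limma. The 3 arrays with pancreas transcripts left out gave 1 higher and 0 lower (596 and 511 at an unadjusted p under 0.05). Array weights, which ran from 0.22 for wild-type LPS replicate 2 to 2.63 for wild-type LPS replicate 3, gave 344 higher and 132 lower. The neutrophil covariate gave 0 and 0. An adjusted p under 0.01 gave 9 and 0, and one under 0.10 gave 70 and 9. Quantile normalization gave 7 lower genes, and the filter on dim genes, median centring and the trended robust fit gave 2 each. With the replicate number as a block, 13 genes were higher and 1 was lower, and 11 of the 34 calls remained. Deviations of same-numbered arrays correlated weakly or negatively (0.06, -0.23, 0.06 and -0.12). For replicates 1 and 3 the best partner was still the same-numbered array, and for the other replicates it was not. With so few arrays, these correlations cannot decide whether the numbers pair the samples. The cause of the changes between alternatives was not tested. Among the genes named, 311 results lost and 110 gained a call across alternatives.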

Other observations

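The 13767 probe sets without a single gene symbol were tested apart from the genes. Limma called 0 of them, with 351 higher and 233 lower in S534A at an unadjusted p under 0.05.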
